A study of Homo sapiens with 2 samples.

Results

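The MX and GBP genes encode large GTPases that interferons induce in many cell types. All probe sets of the deposited table annotated to only 1 of 7 genes were taken, namely MX1, MX2, GBP1, GBP2, GBP3, GBP4 and GBP5. This gave 13 probe sets for the 7 genes, of 54613 probe sets other than controls and 19775 genes with a probe set of their own. No probe set annotated to several genes contained a member. The families were compared between 2 cultures of Huh-7, a human hepatoma line, without and with interferon-alpha, to show their baseline intensity and which of them stayed dim on both arrays.

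The study had 2 arrays, each made from 1 culture of Huh-7 cells. Both cultures were first incubated for 24 hours. The treated culture was then kept for 6 hours in fresh medium with 100 U/mL of recombinant interferon-alpha 2b. The untreated culture had its medium exchanged, and its time of harvest is not given in the sources used here. With 1 array per group there is no replicate error, no test could be made, and the number of arrays limits the precision.

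MX and GBP proteins belong to the dynamin superfamily, whose members bind GTP, assemble into oligomers and work on membranes, organelles or viral particles. MX1 acts in the cytoplasm against influenza and many other RNA viruses, whereas MX2 sits at the nuclear pore and restricts HIV and herpesviruses. GBPs coat the vacuoles of intracellular bacteria and parasites and help to activate inflammasomes. Type I interferon acts through a complex of STAT proteins and IRF9, which binds interferon-stimulated response elements (ISRE). Interferon-gamma acts mainly through STAT dimers on gamma-activated sites (GAS) and through IRF1, and it is the best-known inducer of the GBPs.

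Because these factors bind short sequences near gene starts, the stretches of RefSeq promoters that hold the core letters of an ISRE are shown for the members present in the promoter table (build GRCh38.p14). Each is 30 bases long, 5′ to 3′ in the direction of the gene, and the capitals mark a match to the core (GAAA, any 2 bases and GAAA, or on the other strand TTTC, any 2 bases and TTTC).
MX1, the first start, chr21:41420308-41420607 (+): gagcagaaatGAAACCGAAActgaattgtc
MX1, the third start, chr21:41431800-41432099 (+): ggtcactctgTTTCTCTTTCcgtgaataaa
GBP1, chr1:89065159-89065458 (-): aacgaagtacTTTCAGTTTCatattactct
GBP3, chr1:89022817-89023116 (-): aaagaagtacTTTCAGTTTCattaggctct
GBP4, chr1:89198893-89199192 (-): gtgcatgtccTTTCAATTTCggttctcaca

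The coordinates are those of the whole windows of 300 bases, from 250 bases before to 50 bases after each start. The matches began 11 bases after the first MX1 start, 196 bases before the third MX1 start, 127 bases before the GBP1 start, 2 bases after the GBP3 start and 4 bases before the GBP4 start. Of the 6 windows of MX1, GBP1, GBP3 and GBP4, 5 held the ISRE core, and the second MX1 window did not. Across 35116 RefSeq windows of that length the share was 3.57%. The search took only a gap of 2 bases, and other gaps were not searched. The second MX1 window holds tttcgtttc and tttcatttc, with a shorter gap, which the search does not count. The GBP1 and GBP3 stretches had identical letters at 25 of 30 positions. Both were cut around the searched core, whose fixed letters match by construction. The 250 bases before the GBP1 start are shown to give the setting of its match.
GBP1, upstream: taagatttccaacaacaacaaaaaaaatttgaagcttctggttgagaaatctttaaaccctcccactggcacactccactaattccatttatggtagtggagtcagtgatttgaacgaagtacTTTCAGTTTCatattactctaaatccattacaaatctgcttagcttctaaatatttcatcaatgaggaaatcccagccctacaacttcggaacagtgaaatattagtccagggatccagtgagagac

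The GAS core, which is TTC, any 3 bases and GAA on either strand, was found in 2 of the 6 windows, against 7.66% of all windows. These were the third MX1 window, where the match shares 3 bases with the ISRE core, and the GBP3 window, where it began 15 bases before the start and had no base in common with it. A match is a run of letters and not a shown binding site. The core of the ISRE was present both for MX1, which differed most between the arrays, and for GBP1, GBP3 and GBP4, which stayed dim, as the values below show. Any link between these matches and the values was not tested, and MX2, GBP2 and GBP5 had no sequence to search.

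The arrays were compared as deposited. Values were set against a floor of 48.46, the 50th percentile of all intensities of both arrays without controls. The floor is a threshold of this re-analysis and not a detection call, since no detection calls were used. A gene was represented by its brightest probe set over both arrays and was counted where that probe set lay above the floor on at least 1 array. For counted genes, values below the floor were raised to it before the log2 ratio was taken, so that such a ratio is a lower bound. Of 13269 counted genes, 57 had an interferon value 2-fold higher or more, and 0 had one 2-fold lower or more. The 8 hepatocyte genes measured, among them ALB and AFP, had untreated intensities from 2999.9 (TTR) to 12212 (ALB). Of 6 leukocyte markers measured, 2 (PTPRC and CD3E) were under the floor in both cultures and 4 (CD14, CD79A, ITGAM and LYZ) exceeded it, with LYZ at 2064 and 2271. The summed level of the 6 was 2368 untreated and 2555 with interferon, 0 of them passed 2-fold, and their part in the results was not tested.

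MX1 was the only member that differed by 2-fold or more. Of the 7 members, 3 were counted, of which 1 passed 2-fold upward with interferon and 0 passed it downward. Over all counted genes 0.430% passed it upward and 0% downward. The other counted members, MX2 and GBP2, were 1.28-fold and 1.27-fold higher with the deposited scaling and lay slightly below a ratio of 1 after centring on the hybridisation controls. GBP1, GBP3, GBP4 and GBP5 lay below the floor on both arrays.

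MX1 was read by 1 probe set, 202086_at. It had an intensity of 44.0 on the untreated array, just below the floor, and 818.2 on the interferon array. The untreated value was 90.8% of the floor, at the 47.4th percentile of that array, and the interferon value was at the 93.4th percentile. Relative to the floor MX1 was at least 16.9-fold higher (log2 4.08), which placed it 5th of the 13269 counted genes. Without the floor the ratio of the deposited values was 18.6-fold (log2 4.22). MX1 was counted only because of the interferon array, so its being counted carries no information of its own. Of the 6665 genes that the untreated array placed below the floor, 16 (0.240%) reached 2-fold above it with interferon. As no second probe set for MX1 was in the table, its value could not be set against another part of the transcript. More responding cells and more MX1 RNA per cell cannot be told apart in RNA from a whole culture.

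MX2 showed the opposite layout, with a high baseline and a small difference. Its only probe set, 204994_at, had an intensity of 449.6 on the untreated array, which was 927.8% of the floor and at the 88.7th percentile of that array. On the interferon array it had 575.4, at the 90.7th percentile. The ratio was 1.28-fold (log2 0.36). Of the 12742 genes that exceeded the floor on each array, 206 (1.62%) had a ratio at least as high, and the central 95% of their log2 ratios lay between -0.29 and 0.30. Among the 2730 probe sets of like intensity the central 95% lay between -0.14 and 0.30, so MX2 was just above that range. This is a spread across genes on 2 arrays and not a replicate error. Intensities of different probe sets are not on a common scale, so the higher baseline of MX2 does not show more MX2 than MX1 RNA.

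**Figure D1:**
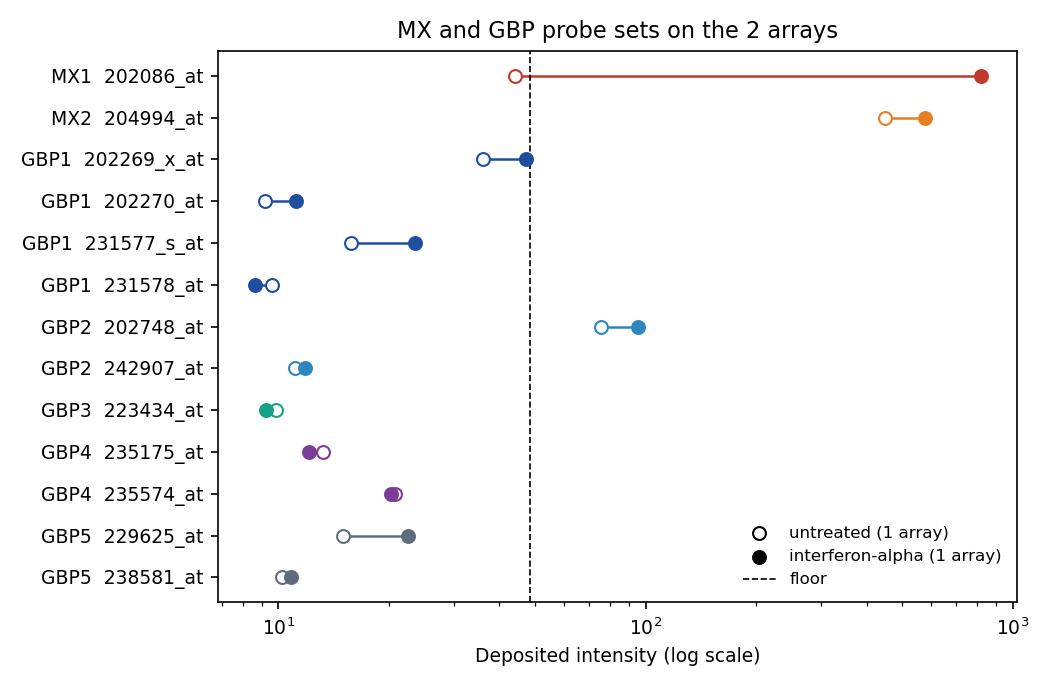
Deposited intensity (log axis) of each of the 13 MX and GBP probe sets on the untreated array (open circles) and the interferon array (filled circles), with the floor of 48.46 as a dashed line. MX1 crosses the floor, MX2 and 1 GBP2 probe set lie above it on both arrays, and the other 10 probe sets lie below it on both.

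The GBP genes were mostly dim. Of their 11 probe sets, 10 were below the floor on both arrays, against 48.5% of all probe sets other than controls. On the gene level 4 of 5 GBP genes were below it on both arrays, against 32.9% of all genes. The 10 dim probe sets had untreated intensities between 9.22 and 36.0 and interferon intensities between 8.61 and 47.1, with medians of 12.2 and 12.0. Little RNA and a weak probe set cannot be told apart below the floor, so that dim describes the signal.

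GBP2, a prenylated GBP that is targeted to membranes, was the only GBP gene above the floor. Its probe set 202748_at had 75.5 on the untreated array and 95.7 on the interferon array, 1.27-fold higher (log2 0.34). Of the same 12742 genes 229 (1.80%) had a ratio at least as high. Among probe sets of like intensity, however, the central 95% lay between -0.37 and 0.42, and GBP2 was inside it. The second GBP2 probe set, 242907_at, was dim, with 11.1 and 11.8.

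GBP1, which builds the first coat on cytosolic bacteria, had 4 probe sets and none above the floor. The brightest, 202269_x_at, had 36.0 untreated and 47.1 with interferon, which is 97.2% of the floor and 1.31-fold higher. The ending _x_at marks probes that can hybridise with other transcripts, so this signal may not be GBP1 alone. Probe set 231577_s_at had 15.8 and 23.6, or 1.49-fold higher (log2 0.58). That was outside the central 95% of probe sets of like intensity, which reached 0.44. Probe set 202270_at had 9.22 and 11.2, and 231578_at had 9.62 and 8.61, so that 3 of the 4 GBP1 probe sets were higher with interferon and 1 was lower as deposited. The sign of the brightest probe set changed only with centring on the hybridisation controls. Its log2 ratio was 0.39 as deposited, 0.41 after median and after quantile scaling, 0.42 after lowess scaling and -0.039 after centring. Probe set 231577_s_at stayed above 0 after centring, at 0.15, whereas 202270_at (-0.15) and 231578_at (-0.59) were below it.

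GBP5, which promotes assembly of the NLRP3 inflammasome, was dim in both of its probe sets. Probe set 229625_at had 14.9 untreated and 22.5 with interferon, 1.51-fold higher (log2 0.59), the highest ratio among the GBP probe sets. The central 95% of probe sets of like intensity ended at 0.44. The other probe set, 238581_at, had 10.2 and 10.8. Both log2 ratios were above 0 as deposited (0.59 and 0.088), but after centring on the hybridisation controls they were 0.16 and -0.34. Among all 26507 probe sets below the floor on both arrays, 0.951% had an interferon value 1.4-fold higher or more, and 40.2% had a ratio above 1.

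GBP3 and GBP4 had lower values with interferon in each of their 3 probe sets as deposited. GBP3 had 9.83 untreated and 9.24 with interferon on 223434_at (log2 -0.090). GBP4 had 13.3 and 12.1 on 235175_at (log2 -0.13) and 20.8 and 20.3 on 235574_at (log2 -0.034). All 3 differences lay inside the central 95% of probe sets of like intensity, so no difference of GBP3 or GBP4 stood out from the spread across genes. Of the 11 GBP probe sets, 7 had a higher and 4 a lower value with interferon as deposited, whereas 2 were higher and 9 lower after centring on the hybridisation controls. Centring subtracts 0.43 from every log2 ratio and put the median of all genes above the floor on both arrays at -0.39. The count of 9 lower thus says nothing particular about the GBPs. As deposited, the median log2 ratio of the 11 was 0.092, against -0.032 for all probe sets below the floor on both arrays. The 11 include GBP2 202748_at, which was above the floor, so the sets are not quite alike. Because the GBP genes share sequence, a dim signal of one may hold some of another.

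**Figure D2:**
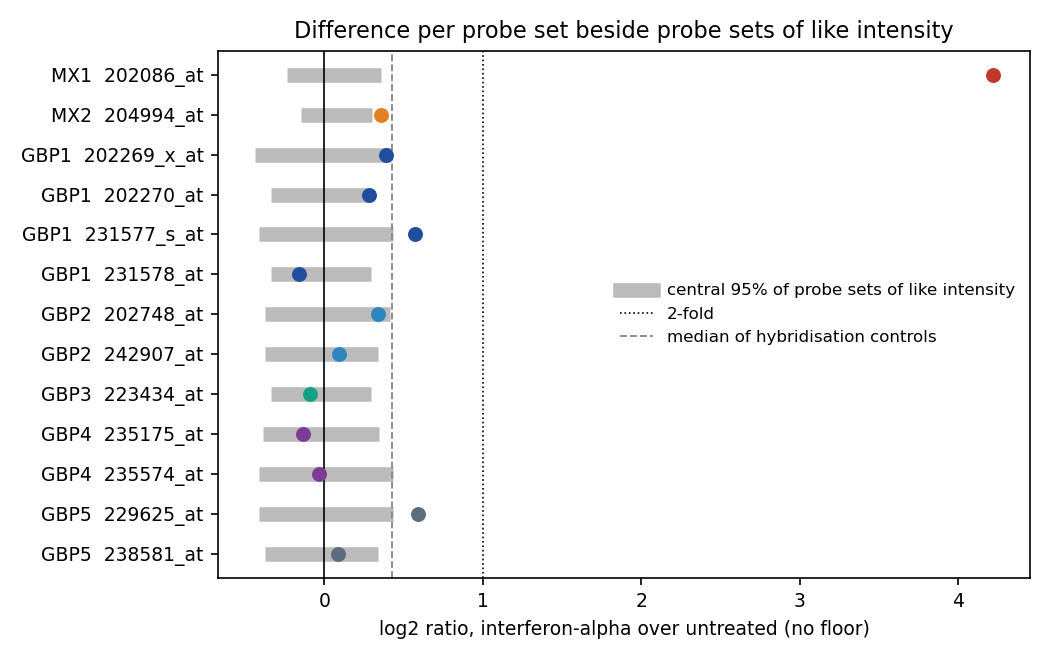
Log2 ratio of interferon over untreated intensities without a floor, for each of the 13 probe sets (points), beside the central 95% of log2 ratios of the probe sets of like intensity (grey bars). The solid line marks 0, the dashed line the median of the hybridisation controls (0.43) and the dotted line 2-fold. Points to the right of the bars are MX1, MX2, GBP1 231577_s_at and GBP5 229625_at, and only MX1 passes 2-fold.

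Members that are neighbours in the genome had different values. In the order of protein-coding genes in RefSeq GRCh38.p14, MX2 and MX1 are neighbours on chromosome 21. The next genes were lower or below the floor with interferon. TMPRSS2, a protease gene beside MX1, had 89.6 and 71.8, and FAM3B, beside MX2, stayed below the floor with 38.3 and 32.6. On chromosome 1 the order among the genes measured is GBP3, GBP1, GBP2, GBP4, GBP5 and GBP6. GBP6 was also dim, with 10.9 and 11.6. The genes on either side of that cluster were above the floor and differed little. LRRC8B, a subunit of volume-regulated anion channels, had 124.4 and 134.5. RBMXL1, an RNA-binding protein gene, had 118.5 and 141.3.

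Genes related to the members by structure were measured on the same arrays. In the dynamin superfamily outside MX, which comprises dynamins and the mitochondrial fusion and fission GTPases, 0 of 6 counted genes passed 2-fold in either direction, and with 0.430% of all counted genes past it upward and 0% downward this count says nothing particular about them. Their median log2 ratio was -0.00067, against 0.033 over all counted genes, and DNM3 was below the floor on both arrays. DNM1L, the fission GTPase, had 793.4 and 852.7, and OPA1, the inner-membrane fusion GTPase, had the lowest ratio with 195.0 and 173.3. The atlastins, which fuse membranes of the endoplasmic reticulum, are the nearest GBP relatives outside immunity. Of these, ATL3 had 1332 and 1519 (log2 0.19), and ATL1 was below the floor on both arrays. Among GBP and immunity-related GTPase relatives, GBP6, IRGM and GVINP1 stayed below the floor, and IRGC had 88.8 and 79.0.

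EHD4, one of the dynamin-related EHD ATPases that remodel endosomes, had the highest ratio of the relatives. Its brightest probe set had 570.6 untreated and 893.1 with interferon, or 1.57-fold higher (log2 0.65). Its 4 probe sets above the floor had log2 ratios of 0.65, 0.71, 0.39 and 0.36, and 0 of them reached 2-fold. After subtraction of the 0.43 shift of the hybridisation controls, the lower pair lay below 0. Among the other EHD genes EHD1 had a log2 ratio of 0.093 and EHD2 of -0.33, while EHD3 was below the floor on both arrays.

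Beside 0.430% of all counted genes that passed 2-fold upward, 1 of 11 counted receptors, kinases and factors upstream of the MX and GBP genes did so. This was IRF9, the DNA-binding subunit of the type I interferon complex, with 106.7 and 2143 (log2 4.33). IRF1, the factor that acts at GBP promoters, had 81.1 and 149.7, or 1.85-fold higher (log2 0.88), and its second probe set was 1.44-fold higher with 62.1 and 89.5. IRF2 had 55.9 and 78.0 (log2 0.48), which is near the 0.43 shift of the hybridisation controls. The interferon-gamma receptor chains IFNGR1 and IFNGR2 exceeded the floor on each array, with 400.3 and 478.3 for IFNGR1 and 477.9 and 461.9 for IFNGR2. JAK2, the kinase bound to IFNGR2, was below the floor on both. The remaining 2 genes of that list were not analysed here.

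Other genes known mainly as interferon-gamma responders, in a list that also holds IRF1, were dim or differed by less than 2-fold. Of the 17 measured, 8 stayed below the floor on both arrays, among them CIITA, CXCL9, CXCL11, IDO1 and PSMB9, against 32.9% of all genes. Past 2-fold were 0 of the 9 counted, beside 0.430% of all counted genes upward and 0% downward, which is near that background. The median log2 ratio of those counted was 0.085. CXCL10, a chemokine, had 24.4 and 57.8, at least 1.19-fold higher after the floor and 2.37-fold higher without it. Of the 12 interferon-stimulated genes for comparison, 10 were at least 2-fold higher, and the median log2 ratio of the 12 was 2.54. That list was drawn from genes already known to respond and is not independent evidence of a direction.

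Most partners of the members differed by less than 2-fold, as did most counted genes, of which 0.430% were at least 2-fold higher. Among genes that work with GBPs at vacuoles and in inflammasomes, 1 of 10 counted was at least 2-fold higher. This was RNF213, a giant ubiquitin ligase that coats bacteria and lipid droplets, with 97.2 and 312.1 (3.21-fold), and 5 of its 7 probe sets above the floor passed 2-fold. The probe set of RNF213 brightest on the untreated array was 1.48-fold higher. CASP4, the caspase that senses bacterial lipopolysaccharide, had 217.6 and 292.7 (1.35-fold, log2 0.43). That ratio was about the size of the 0.43 shift of the hybridisation controls. GSDMD, the pore protein that CASP4 cleaves, had 460.0 and 504.9. CASP5, AIM2 and NLRP3 stayed below the floor. The farnesyltransferase subunit gene FNTA, part of an enzyme that adds lipid anchors, had 2127 and 2341, and FNTB was below the floor.

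All 11 nuclear pore and import genes linked to MX2 exceeded the floor on each array. The count past 2-fold was 0, beside 0.430% of all counted genes upward and 0% downward, and is near that background. Their log2 ratios ran from 0.018 (NUP214) to 0.24 (TNPO1, an import receptor), with a median of 0.16, below the 0.36 of MX2. All 11 were below 0 after subtraction of the 0.43 shift of the hybridisation controls. So were most genes above the floor on both arrays, whose median was then -0.39. The upper end of their central range, as given for MX2, was 0.30 as deposited and thus also below 0.43. The count of 11 below 0 therefore says nothing particular about the pore genes.

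**Figure D3:**
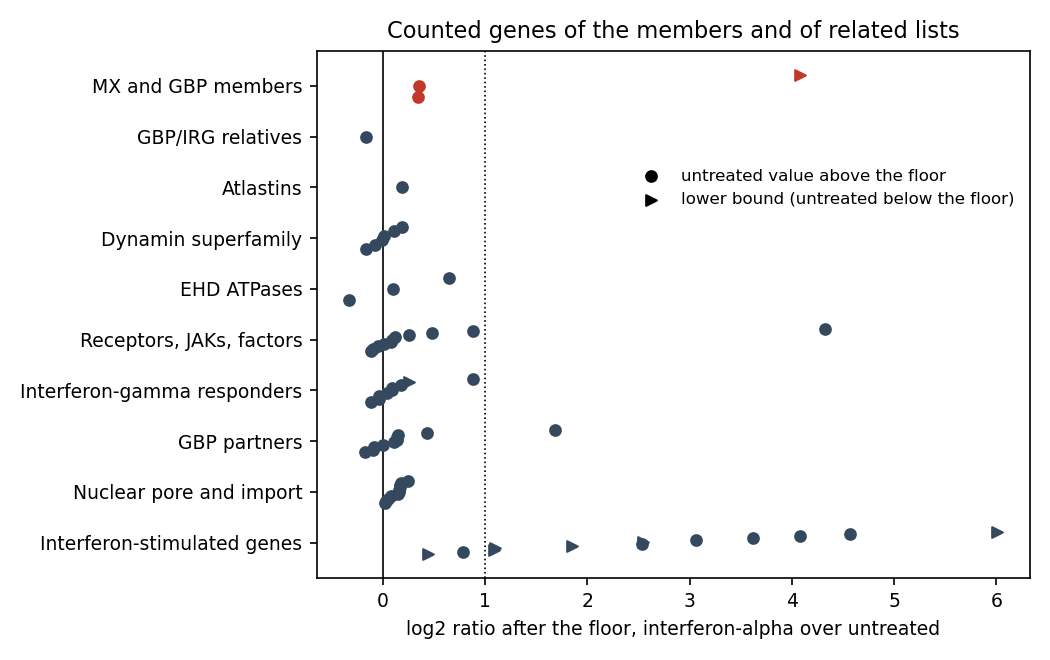
Log2 ratios after the floor for the 3 counted members (red) and the counted genes of 9 related lists (dark), with lower bounds as triangles and 2-fold as a dotted line. MX1 at 4.08 lies among the interferon-stimulated genes. MX2 (0.36) and GBP2 (0.34) lie below 1 but above every counted dynamin, atlastin and pore gene, the highest of which are at 0.18, 0.19 and 0.24. The counted EHD genes, upstream genes, interferon-gamma responders and GBP partners include genes above and genes below MX2 and GBP2.

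The genes closest to MX1 on these 2 arrays were sought by distance in floored log2 intensity. They were PARP9, a mono-ADP-ribosyltransferase family member, with 67.0 and 660.5 at a distance of 0.56, and PARP14 with 69.8 and 671.3 at 0.60. IFIT5, a protein that binds viral RNA, followed with 65.9 and 1114 at 0.63. These 3 were above the floor on both arrays, unlike MX1. By the same measure 352 genes lay within 0.25 of MX2 and 317 within 0.25 of GBP2. That distance also takes in genes of like intensity with smaller ratios.

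The size of the MX1 difference depended on the floor but stayed above 2-fold in all 11 other settings, from 11.1-fold with the floor at the 60th percentile to 18.6-fold with it at the 40th. The signs of MX2 and GBP2 depended on the scaling, and only centring on the hybridisation controls changed them. Their log2 ratios were 0.36 and 0.34 as deposited, 0.28 and 0.35 after quantile normalization, and -0.071 and -0.086 after centring on the hybridisation controls. Each of the 18 probe sets of these controls had a higher value with interferon, and their median log2 ratio was 0.43. Which scaling is right for these arrays was not tested.

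**Figure D4:**
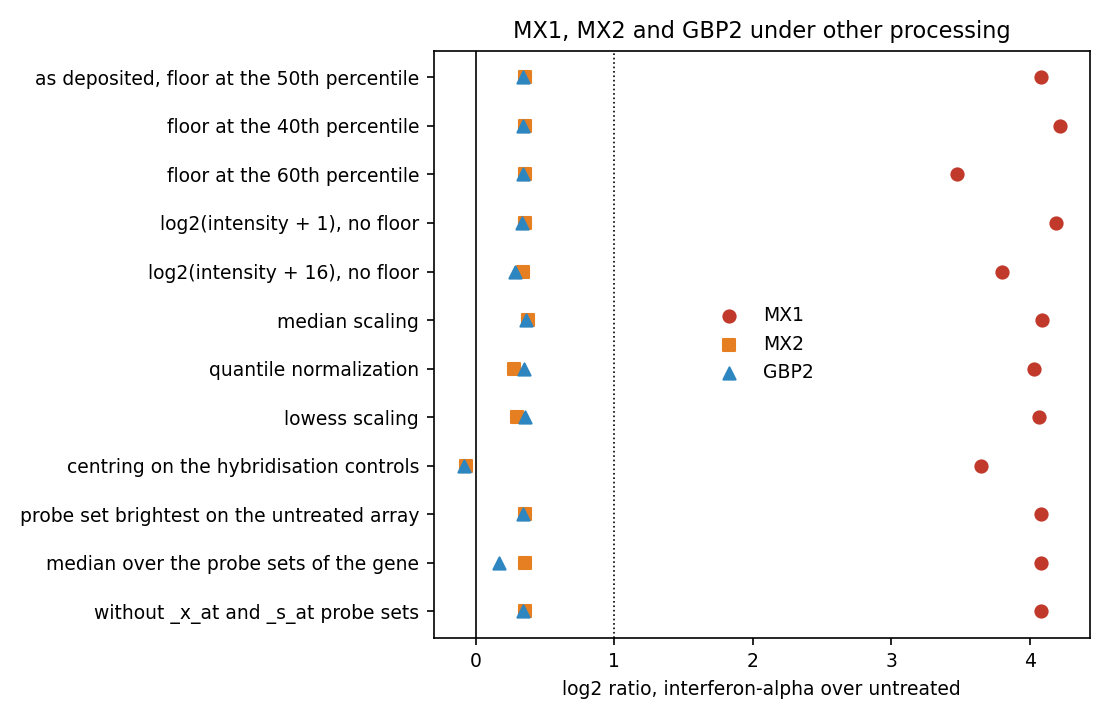
Log2 ratio of MX1 (circles), MX2 (squares) and GBP2 (triangles) as deposited and under 11 other settings of floor, pseudocount, scaling and choice of probe set. MX1 lies between 3.47 and 4.22 in all settings, and MX2 and GBP2 lie above 0 except after centring on the hybridisation controls.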

How the data were processed

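The authors deposited 1 intensity per probe set and array on a linear scale, from Affymetrix arrays hybridised with biotinylated cRNA made from 6 µg of total RNA, per the labels' protocols. The submitters' processing notes name GCOS, Affymetrix's scanner software. Its version, background correction, probe summary and scaling are not given in the sources used.

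The platform annotation gave the gene names. For 41037 of the 41091 probe sets with 1 gene, the symbol was taken from RefSeq through the gene ID, whether or not it differed. Log2 ratios of interferon over untreated were computed in Python 3.11.15 with pandas 2.3.3. Probe sets of like intensity are those in the same of 20 equal groups by mean log2 intensity. The floor and pseudocount settings, the median, quantile and lowess scalings, centring on the hybridisation controls and 3 choices of probe set were the alternatives. The procedure was tested on simulated data for this comparison, over 13189 counted genes. It called 49 of 50 simulated 2.5-fold differences, 50 of 50 at 4-fold and 0 of 50 at 1.5-fold. All of these had intensities at least 4 times the floor.

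The members and lists were chosen with earlier results of these data known. Named genes are all members, list members past 2-fold or with the highest or lowest ratio or highest baseline, and the 3 genes nearest to MX1. The others named from the lists were chosen after their values were seen. Promoters came from RefSeq and were found for 4 of 7 members. MX2, GBP2 and GBP5 have no sequence shown.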

Additional observations from a re-analysis of the deposited data

How the results depend on the processing

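Of the 222 values recomputed under 11 alternatives, 208 stayed within the limits used, which were 0.29 on the log2 scale for a ratio (0.5 times the width of the central 95% of genes) and 1.5 times for a count. The log2 ratio of MX1 moved from 4.08 to 3.47 with the floor at the 60th percentile, because the bound follows the floor. Centring on the hybridisation controls subtracts a constant and gave 3.65 for MX1, -0.071 for MX2, -0.086 for GBP2, -0.039 for GBP1, -0.52 for GBP3, -0.46 for GBP4 and 0.16 for GBP5. It also gave 13 genes at least 2-fold lower, against 0 as deposited, and 44 higher against 57. With log2(intensity + 1), and with a 40th-percentile floor, 1 gene was at least 2-fold lower. The pseudocount of 1 also put 1 interferon-gamma responder past 2-fold. The count of GBP partners past 2-fold was 0 with the probe set brightest on the untreated array and without _x_at and _s_at probe sets, because another probe set of RNF213 was then used. With the floor at the 40th percentile 3 members in place of 4 were below it on both arrays, since GBP1 passed. The count of all genes at least 2-fold higher was 38 without _x_at and _s_at probe sets, where 10176 genes were counted. No replicate could be left out. No paired analysis was possible because each group has 1 array.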
